A study of Mus musculus with 12 samples.

Results

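Dimethyl α-ketoglutarate (DMαKG) was set against vehicle in regulatory T cells (Tregs) of wild-type (WT) mice, in 3 libraries of DMαKG-treated mice and 3 libraries of vehicle-treated mice. These were all the WT libraries, 6 of 12 in the series. The other 6 came from cKO mice, which lack the transketolase gene Tkt in Tregs and drank DMαKG or vehicle, 3 libraries a group. The 6 libraries were chosen by their genotype and treatment labels, and every gene of the table was considered. The cells were sorted as CD4+CD25+YFP+ from spleen and lymph node of C57BL/6 mice at 7 weeks of age. DMαKG or vehicle had been in the drinking water from the pregnancy of the dam until the offspring were adult, so the Tregs developed under the treatment and the mothers drank it too. All the mice, WT and cKO, carried a Cre recombinase fused to yellow fluorescent protein at the Foxp3 locus, so the WT mice here are carriers of the Cre and not untouched animals. The DMαKG replicates are numbered 1 to 3 and the vehicle replicates 2 to 4 in the labels. Each number is taken as 1 replicate, since the series' design text gives 3 per group, and every p-value below treats the 3 as independent. The Y-linked levels below were graded between libraries. Ddx3y, for 1, stood at 0.0555 CPM in vehicle replicate 3, 22.6 in DMαKG replicate 2, 140 in DMαKG replicate 1 and 241 in DMαKG replicate 3. A library is therefore not taken to be 1 mouse, and whether it pools cells of several mice was not tested.

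α-Ketoglutarate, also called 2-oxoglutarate, is made from isocitrate by isocitrate dehydrogenases and from glutamate by transaminases and glutamate dehydrogenase, and is consumed in the TCA cycle by the oxoglutarate dehydrogenase complex. It is also the cosubstrate of a large enzyme family, the 2-oxoglutarate-dependent dioxygenases, which includes the TET enzymes that oxidise methylated cytosine, the Jumonji histone demethylases, the nucleic acid demethylases of the ALKBH family and the prolyl hydroxylases that mark HIF-1α for destruction. DMαKG is an esterified form that crosses membranes and is cleaved to α-ketoglutarate inside cells. Tregs are CD4+ T cells that restrain immune responses; their identity rests on the transcription factor Foxp3, whose stable expression depends on demethylated regulatory DNA at its own locus.

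Summed estimated counts ran from 17600000 to 18200000 in the DMαKG libraries and from 17600000 to 18300000 in the vehicle libraries. Of 17955 genes in the table, 12903 had enough counts to be tested. Tkt is intact in all 6 libraries and stood at 110, 137 and 194 CPM (counts per 1000000 counts of a library, scaled by TMM) with DMαKG and at 133, 102 and 111 CPM with vehicle. The libraries of DMαKG replicate 3 and vehicle replicate 4 lay apart from the other 4 on the first principal component of the 6, which held 42.6% of the variance, at 32.0 and 33.5 against -29.3 to -7.6. This component did not separate the treatments (two-sided exact permutation test, p = 0.5; 3 against 3 cannot give less than 0.1). Tnfaip3, an inhibitor of NF-κB signalling picked from its leading genes after their values were seen, stood at 5344, 6398 and 709 CPM with DMαKG and 3710, 3239 and 383 CPM with vehicle, in replicate order. Y-linked transcripts differed within both groups and were among the leading genes of the first component, toward DMαKG replicate 3 and vehicle replicate 4. The helicase gene Ddx3y stood at 140, 22.6 and 241 CPM with DMαKG and 109, 0.0555 and 224 CPM with vehicle. Those libraries thus held the highest Ddx3y level of their groups, and the part of sex in the component was not tested.

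No gene passed an adjusted p of 0.05 between DMαKG and vehicle. In edgeR's quasi-likelihood test, fitted to all 12 libraries with Benjamini-Hochberg adjustment over the 12903 genes, the smallest adjusted p was 0.999, and 0 genes, or 0% of those tested, were called. An unadjusted p under 0.05 was found for 352 genes, 2.73% of the total, of which 135 (1.05%) were higher and 217 (1.68%) were lower with DMαKG; with no true change, about 5% of genes would fall under this p. The 3 DMαKG libraries and the 3 vehicle libraries did not overlap in 1090 genes, 8.45% of those tested, with 592 (4.59%) higher and 498 (3.86%) lower. The count of 352 moved by over 1.5 times when a DMαKG library was left out: it was 224 without replicate 1, 203 without replicate 2 and 1221 without replicate 3, while the adjusted count was 0 each time. DESeq2's Wald test called 2 genes, Xxylt1 and the linker histone gene H1f3, and limma's voom with sample quality weights called 8, with 2341 at an unadjusted p under 0.05. The voom weights were 0.42 for DMαKG replicate 3 and 0.68 for vehicle replicate 4, against 1.47 to 2.7 for the other WT libraries.

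The data set limits to the size of any change. Standard errors of the log2 fold changes had a median of 0.18, and 0.16 over the 9911 genes whose mean reached 5 CPM in a group. The 95% interval of the fold change lay within 2-fold in both directions for 10376 of 12903 genes (80.4%), and for 9300 of the 9911 better expressed genes (93.8%). The middle 95% of log2 fold changes ran from -0.67 to 0.54. A log2 fold change beyond 1 in size was found in 171 genes, 19 of them among the 9911. Intervals were wide for genes that varied between libraries of a group. The statements below that a gene did not pass the test mean that a change was not detectable with 3 libraries a group.

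The 24 protein-coding genes that stood first by p-value, 12 in each direction, were taken among those whose groups did not overlap and whose mean reached 5 CPM in at least one of them; none passed the adjusted threshold (adjusted p = 0.999 for each, edgeR). They are given as the best-ranked differences, and their separation is part of how they were picked. Among those higher with DMαKG, Xxylt1 (gene 268880, chromosome 16, 30955347 to 31081432, GRCm38.p6), which encodes a xylosyltransferase that extends O-glycans on Notch receptors, had 80.3, 73.4 and 63.7 CPM with DMαKG and 54.0, 45.5 and 46.3 CPM with vehicle. Its log2 fold change was 0.58 (SE 0.12, unadjusted p = 0.000287, edgeR quasi-likelihood test), or 1.49-fold, and its 3 treated libraries all lay above the highest vehicle library. Dnah7a (gene 627872, chromosome 1, 53396995 to 53707301), an axonemal dynein heavy chain, had 64.1, 73.3 and 60.7 CPM with DMαKG and 39.2, 38.6 and 29.8 CPM with vehicle, a log2 fold change of 0.88 (SE 0.19, unadjusted p = 0.00059, edgeR). The gap between the groups was wider than the range within either.

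Others of the higher set have roles in signalling and RNA binding. Cirbp, the cold-inducible RNA-binding protein, had 97.4, 123 and 57.9 CPM with DMαKG and 48.7, 54.4 and 55.3 CPM with vehicle. Its DMαKG libraries spread over a wide range, and DMαKG replicate 3 lay close to the vehicle libraries. Cst7, which encodes cystatin F, an inhibitor of lysosomal cathepsins, had 73.2, 65.0 and 74.5 CPM with DMαKG and 49.9, 48.5 and 48.5 CPM with vehicle, a log2 fold change of 0.53 (SE 0.16). Prkca, protein kinase C α, had the narrowest groups of the higher set, with 312, 319 and 314 CPM under DMαKG and 243, 256 and 251 CPM under vehicle, 1.26-fold higher. Rragd, a Rag GTPase that couples amino acids to mTORC1 at the lysosome, had 34.6, 33.7 and 31.5 CPM with DMαKG and 24.1, 27.8 and 22.7 CPM with vehicle, 1.34-fold higher. In both of these genes the lowest DMαKG library lay above the highest vehicle library by more than the range of the DMαKG group. The other 6 were Slc14a1, a urea transporter; Zc3h6, a zinc finger gene; Pard6g, a cell polarity protein; Ksr2, a scaffold of the Ras pathway; Xlr3b, which has near-identical neighbours on the X chromosome and is therefore uncertain; and Dclk2, a doublecortin-like kinase. Their log2 fold changes ran from 0.42 in Pard6g to 0.94 in Xlr3b.

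**Figure D1:**
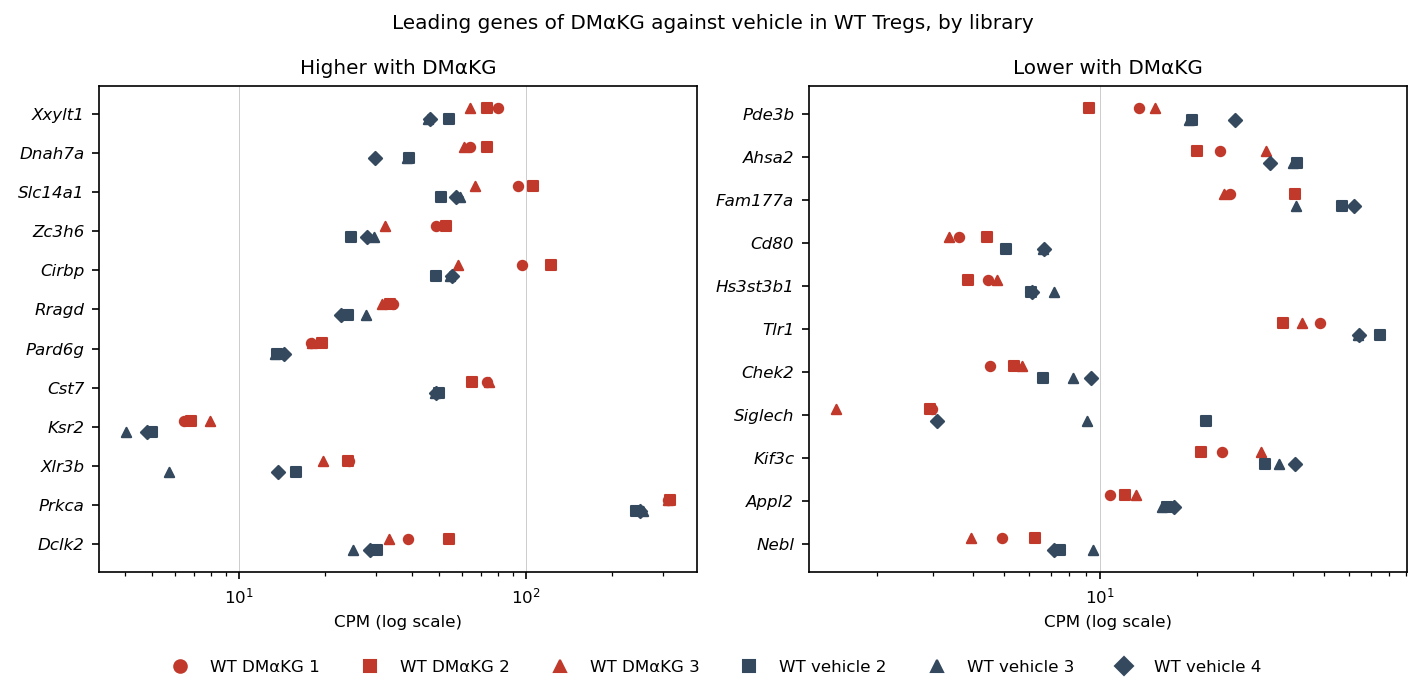
CPM on a log axis in each WT library for the 12 best-ranked genes higher and 11 of the 12 lower with DMαKG (red, DMαKG replicates 1 to 3; blue, vehicle replicates 2 to 4). The groups do not overlap in any row because genes were picked that way; Prkca has narrow groups, and Siglech a vehicle group that runs from 3.10 to 21.4 CPM.

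Among the 12 genes lower with DMαKG, Pde3b (gene 18576, chromosome 7, 114415222 to 114537938), a cyclic nucleotide phosphodiesterase whose transcript is known to be repressed in Tregs by Foxp3, had 13.2, 9.24 and 14.8 CPM with DMαKG and 19.4, 18.9 and 26.4 CPM with vehicle. Its log2 fold change was -0.79 (SE 0.19, unadjusted p = 0.00118, edgeR), or 0.577-fold. Tlr1, the Toll-like receptor that pairs with TLR2 to sense bacterial lipopeptides, had 48.6, 37.3 and 42.7 CPM with DMαKG and 74.8, 64.0 and 64.5 CPM with vehicle, 0.633-fold. In both genes the highest DMαKG library lay below the lowest vehicle library, as the choice of the genes required. Cd80, a ligand of CD28 and CTLA-4, was at a low level, 3.63, 4.42 and 3.36 CPM with DMαKG and 5.08, 6.61 and 6.66 CPM with vehicle. Chek2, the DNA damage checkpoint kinase, had 4.51, 5.39 and 5.71 CPM with DMαKG and 6.61, 8.22 and 9.34 CPM with vehicle. In Cd80 and Chek2 too, the separation of the groups was part of the choice.

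Some genes of the lower set carry an uncertainty. Ahsa2, an HSP90 co-chaperone, overlaps Usp34, Fam177a overlaps the predicted gene Gm2436, and Kif3c, a kinesin motor, overlaps I920046F24Rik; the sources used here do not say whether reads were assigned by strand, so these values may include reads of the neighbour. Fam177a had 25.4, 40.7 and 24.3 CPM with DMαKG and 56.8, 40.9 and 62.2 CPM with vehicle, and DMαKG replicate 2 lay just below vehicle replicate 3. The others named here were Hs3st3b1, a heparan sulfate sulfotransferase, Appl2, an endosomal adaptor, Nebl, an actin-binding protein, and Siglech, which is described with the dendritic cell markers. All 24 genes kept their direction in each of the 18 alternative fits. Their choice by non-overlapping groups largely fixed this for fits that rescale or leave libraries out, so nothing is read from it. Without DMαKG replicate 3 and vehicle replicate 4, 20 of 24 were still at an unadjusted p under 0.05. Without DMαKG replicate 2 and vehicle replicate 3, 17 of 24 were. Outside the rule, H1f3 had the smallest unadjusted p of the table (0.000201, edgeR) at a level under the 5 CPM minimum: 2.52, 3.46 and 2.77 CPM with DMαKG and 0.565, 1.17 and 0.210 CPM with vehicle.

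By size of change, the 5 non-overlapping genes furthest up and down, from the same 5 CPM level, added genes with weaker tests. Gm42226, a predicted gene, had 57.4, 70.0 and 69.7 CPM with DMαKG and 36.0, 32.0 and 35.6 CPM with vehicle, a log2 fold change of 0.93 (SE 0.34). Sh3rf2, a scaffold protein with SH3 domains, had 4.10, 5.78 and 7.47 CPM with DMαKG and 3.61, 0.999 and 3.41 CPM with vehicle, and the predicted gene Gm14296 had 11.9, 10.5 and 10.2 CPM with DMαKG and 7.79, 4.05 and 4.14 CPM with vehicle. In Sh3rf2 the lowest DMαKG library was close to 2 of the vehicle libraries. Among those lower, LOC102641031 had 5.62, 3.52 and 5.44 CPM with DMαKG and 12.8, 76.3 and 13.2 CPM with vehicle, with a log2 fold change of -2.81 (SE 0.82) that was -1.41 without vehicle replicate 3. Gm21297 had 4.39, 4.31 and 5.28 CPM with DMαKG and 8.64, 7.38 and 8.76 CPM with vehicle.

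Transcripts of the enzymes that use α-ketoglutarate, and of DNA methylation genes listed with the TET enzymes, differed little between the groups. In that shared list, members such as Dnmt1 and Mbd2 do not use α-ketoglutarate. Of 16 DNA methylation and TET genes tested, 0 of 16 reached an unadjusted p under 0.05, 11 were higher and 5 lower in level, and the median log2 fold change was 0.04, against 0.00 over all genes tested, of which 49.8% were higher and 50.2% lower. Tet2 had 122, 127 and 97.4 CPM with DMαKG and 103, 110 and 84.5 CPM with vehicle. Tet3 had 200, 190 and 244 CPM with DMαKG and 233, 202 and 313 CPM with vehicle. The groups overlapped in both, with log2 fold changes of 0.22 (95% interval -0.10 to 0.54) for Tet2 and -0.24 (-0.68 to 0.20) for Tet3. The maintenance methyltransferase gene Dnmt1, named for its role, was at -0.12 (-0.71 to 0.48). Mbd2, a reader of methylated DNA, had the smallest interval of the 3 best-ranked members, -0.10 to 0.41 around 0.16.

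Of 30 histone and nucleic acid demethylase genes that depend on 2-oxoglutarate, all tested, 0 reached an unadjusted p under 0.05; 18 were higher and 12 lower in level, with a median of 0.06, and 28 of 30 had a 95% interval within 2-fold. The best ranked were Alkbh4 and Alkbh2, members of the ALKBH family, both at a log2 fold change of -0.32, and Alkbh6 at 0.17. Alkbh4 had 15.9, 17.7 and 24.0 CPM with DMαKG and 20.4, 22.4 and 29.4 CPM with vehicle, and the groups overlapped. Kdm6b, which removes methyl groups from lysine 27 of histone H3 and is named for its role, had 252, 266 and 172 CPM with DMαKG and 224, 201 and 144 CPM with vehicle, with a log2 fold change of 0.28 (95% interval -0.18 to 0.74). Alkbh2 overlaps Ung, so its value is uncertain.

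The 2-oxoglutarate-dependent hydroxylases, which modify proteins such as HIF-1α and collagen, leaned to the lower side by a small amount. Of 25 tested members, 19 were lower and 6 higher in level, the median log2 fold change was -0.15, and 4 others (P4ha2, P4ha3, Asphd1 and Asphd2) were too low to test. The list mean, in log2 CPM relative to the mean of the 6 libraries, was -0.06, -0.04 and -0.12 with DMαKG and 0.04, 0.11 and 0.06 with vehicle. All 3 DMαKG libraries lay below all 3 vehicle libraries; of the 35 lists examined, 1 had means that did not overlap. Of single genes 8.45% did not overlap in one direction or the other, so the separation does not set this list apart. Single members were less clear: 1 of 25, Jmjd6, reached an unadjusted p under 0.05 in the lower direction (background 1.68%), and 2 of 25 had groups that did not overlap (background 8.45%). Jmjd6, a lysyl hydroxylase of splicing factors that overlaps Mettl23 and is thus uncertain, had 39.9, 31.1 and 43.3 CPM with DMαKG and 53.5, 42.4 and 46.9 CPM with vehicle, a log2 fold change of -0.32 (SE 0.15, unadjusted p = 0.0494, edgeR). Hspbap1, a JmjC-domain protein that binds a small heat shock protein, had 18.8, 17.7 and 17.7 CPM with DMαKG and 20.8, 21.6 and 20.1 CPM with vehicle, with no overlap. The HIF prolyl hydroxylase gene Egln1, named for its role, had 77.9, 77.8 and 76.9 CPM with DMαKG and 84.0, 89.4 and 75.2 CPM with vehicle, a log2 fold change of -0.10 (95% interval -0.45 to 0.26), and its groups overlapped. The list's median stayed between -0.17 and -0.12 when each library was left out.

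**Figure D2:**
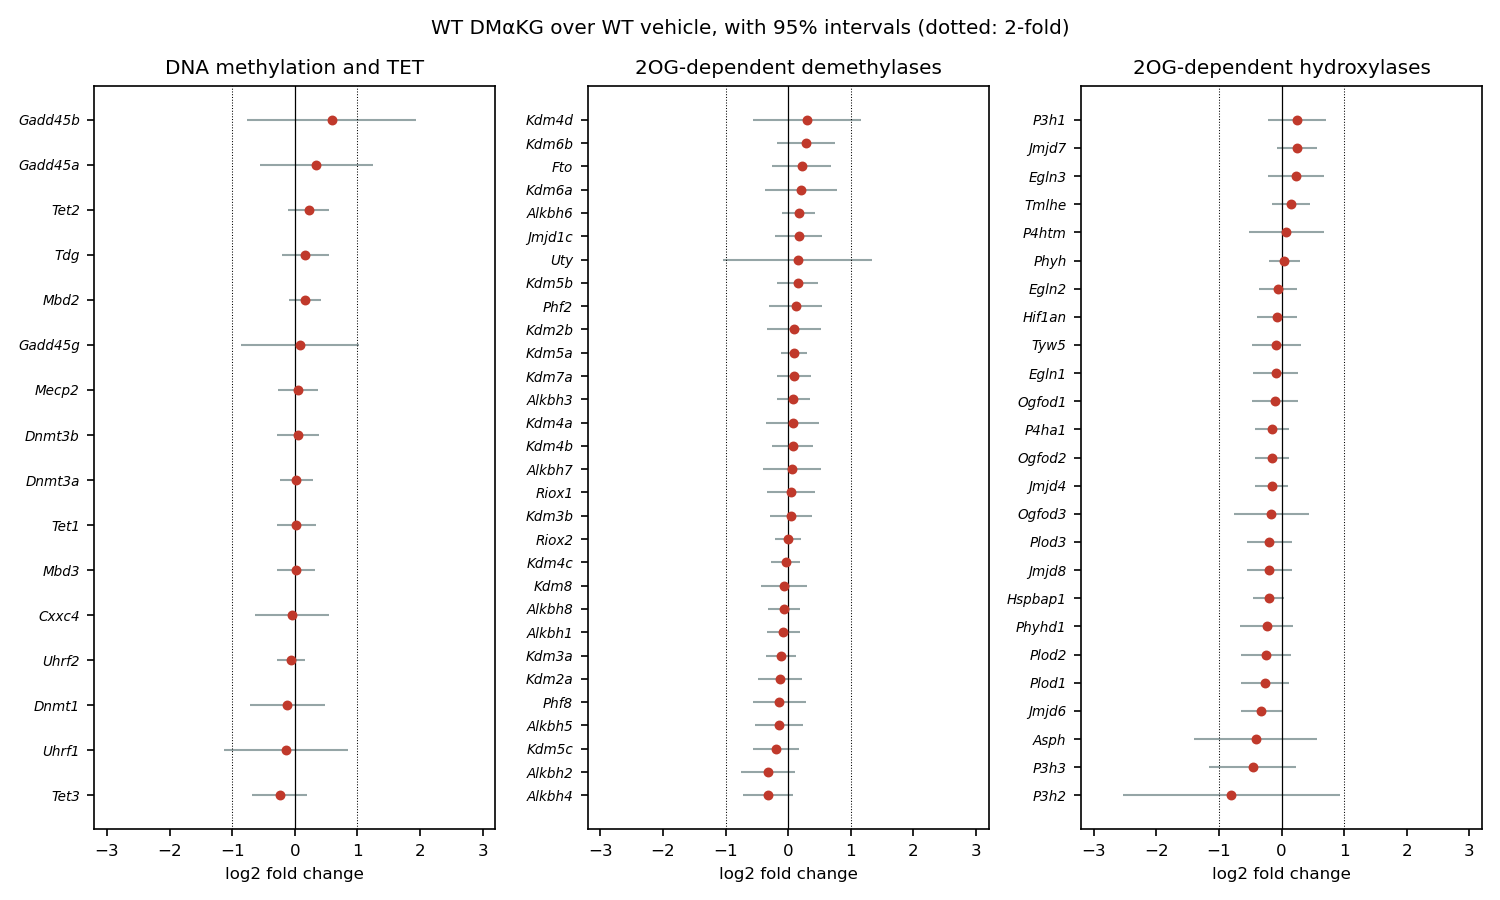
Log2 fold change of WT DMαKG over WT vehicle with its 95% interval for every tested member of 3 groups of genes: DNA methylation and TET, 2-oxoglutarate-dependent demethylases and 2-oxoglutarate-dependent hydroxylases; dotted lines mark 2-fold. Most intervals hold 0 and lie within 2-fold, and 19 of 25 hydroxylase genes lie left of 0.

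Genes that make, use and move α-ketoglutarate differed little. Of 28 TCA cycle genes tested, 21 were higher and 7 lower in level, their median log2 fold change was 0.05, and all 28 had a 95% interval within 2-fold. Suclg2, the GTP-forming subunit of succinyl-CoA synthetase, was the single member at an unadjusted p under 0.05 (0.046, edgeR; background 1.05% higher), with 62.8, 65.5 and 51.7 CPM under DMαKG and 50.5, 49.1 and 48.1 CPM under vehicle. Its groups did not overlap, though DMαKG replicate 3 lay close to vehicle replicate 2. The isocitrate dehydrogenase genes Idh3g and Idh2, which make α-ketoglutarate, were at 0.21 (95% interval -0.11 to 0.53) and 0.17 (-0.11 to 0.46). Of 21 tested genes of α-ketoglutarate transport and transamination 13 were higher and 8 lower, with a median of 0.07 and 0 at an unadjusted p under 0.05. The best ranked was the mitochondrial citrate carrier gene Slc25a1, with 16.2, 21.4 and 17.1 CPM under DMαKG and 14.5, 13.1 and 16.9 CPM under vehicle. The plasma membrane dicarboxylate carriers Slc13a2 and Slc13a3 and the α-ketoglutarate receptor gene Oxgr1 had at most 3 counts in any WT library and were not tested.

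Lists of the neighbouring pathways also had medians close to 0. Glutamine metabolism split evenly, with 11 of 22 tested genes higher and 11 lower and a median of 0.01; asparagine synthetase, Asns, had 9.61, 10.6 and 7.31 CPM with DMαKG and 9.88, 16.5 and 10.4 CPM with vehicle. In the pentose phosphate pathway 10 of 16 genes were higher and 6 lower, with a median of 0.02. Tkt, the enzyme of the non-oxidative branch that the cKO mice lack, ranked among the pathway's first 3 at a log2 fold change of 0.35 (95% interval -0.10 to 0.80). DMαKG replicate 3 held its highest value and its value without that library was 0.10. Rbks, ribokinase, had 6.62, 6.41 and 6.67 CPM with DMαKG and 5.93, 5.39 and 5.51 CPM with vehicle, without overlap. Glycolysis had 21 of 30 genes higher and 9 lower, with a median of 0.06, and its best-ranked gene Ldhb, a lactate dehydrogenase subunit, had 68.9, 65.6 and 67.1 CPM with DMαKG and 58.9, 48.3 and 60.3 CPM with vehicle. The 27 tested HIF targets split into 13 higher and 14 lower with a median of -0.03. In these 4 lists 0 members reached an unadjusted p under 0.05.

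Genes of protein synthesis and respiration leaned to the higher side by small amounts. Of 84 cytosolic ribosomal protein genes tested, 82 were higher and 2 lower in level, and the median log2 fold change was 0.20; 1, the low-level paralogue Rpl3l, reached an unadjusted p under 0.05 (background 1.05% higher) and 5 had groups that did not overlap, all higher (background 4.59%). Rpl3 had 2664, 2329 and 1969 CPM with DMαKG and 2080, 1821 and 1863 CPM with vehicle. DMαKG replicate 1 stood highest and DMαKG replicate 3 lay among the vehicle libraries. The list median was 0.09 without DMαKG replicate 1 and 0.29 without DMαKG replicate 3, so 1 library moved it by over 1.5 times. Many of these genes have near-identical pseudogenes, so single values are uncertain, and the median was 0.20 with DESeq2's size factors and 0.19 with upper-quartile scaling.

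Oxidative phosphorylation subunits had 72 of 80 tested members higher and 8 lower, with a median of 0.10 and 0 at an unadjusted p under 0.05. Ndufs3, a core subunit of complex I, had 48.0, 47.3 and 43.4 CPM with DMαKG and 41.7, 39.9 and 42.6 CPM with vehicle, while Ndufab1, the mitochondrial acyl carrier protein, was lower, with 16.3, 15.8 and 16.9 CPM under DMαKG and 19.6, 18.6 and 19.4 CPM under vehicle. The groups overlapped in neither gene. The list median was 0.04 without DMαKG replicate 1 and 0.17 without DMαKG replicate 3. Of 78 mitochondrial ribosomal protein genes 51 were higher and 27 lower, with a median of 0.04; 3 reached an unadjusted p under 0.05 in the higher direction (background 1.05%), namely Mrpl17, Mrps18b and Mrpl2. Mrpl2, which overlaps Klc4 and is uncertain, had 21.6, 21.8 and 19.7 CPM with DMαKG and 17.4, 17.8 and 17.2 CPM with vehicle. Fatty acid oxidation had 21 of 30 higher and 9 lower, with a median of 0.05. Its enoyl-CoA hydratase gene Echs1, which overlaps Paox and is uncertain, had 40.1, 41.0 and 33.5 CPM with DMαKG and 31.3, 30.4 and 30.1 CPM with vehicle. Cholesterol synthesis had 12 of 23 higher and 11 lower, with a median of 0.05.

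**Figure D3:**
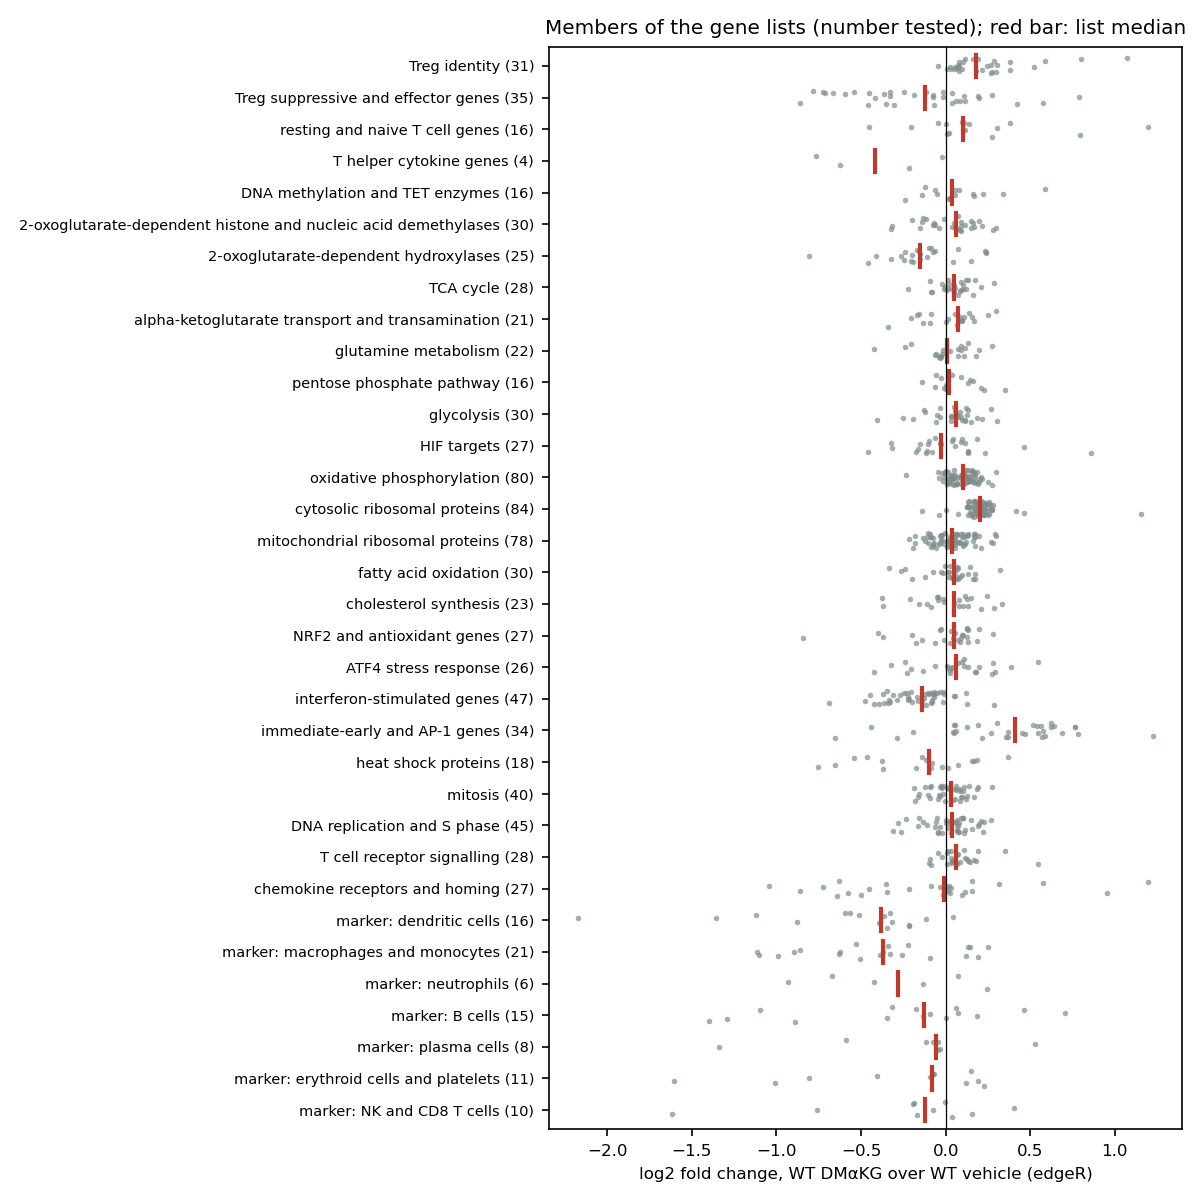
Log2 fold change of WT DMαKG over WT vehicle for each tested member (grey points) of each gene list, with the number tested in brackets and the list median as a red bar. Cytosolic ribosomal protein genes form a narrow group around 0.20, immediate-early genes a wide one around 0.41, and dendritic cell markers lie mostly left of 0.

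The sorted cells carried the Treg programme in both groups. Foxp3, which overlaps Ccdc22 and is therefore uncertain, had 382, 468 and 454 CPM with DMαKG and 366, 347 and 390 CPM with vehicle, a log2 fold change of 0.24 (95% interval -0.19 to 0.67). Il2ra, the high-affinity IL-2 receptor chain used in the sort, had 570, 608 and 651 CPM with DMαKG and 504, 475 and 622 CPM with vehicle, and Ikzf2, the transcription factor Helios, had 1256, 1337 and 1213 CPM with DMαKG and 1280, 1286 and 1225 CPM with vehicle. The groups overlapped in all 3 of these genes. Of 31 Treg identity genes, 30 were higher and 1 lower in level, with a median of 0.18; 2 reached an unadjusted p under 0.05, both higher (background 1.05%), and 5 had non-overlapping groups, all higher (background 4.59%). The list mean was 0.18, 0.27 and -0.11 with DMαKG and -0.06, -0.15 and -0.13 with vehicle, so DMαKG replicate 3 lay with the vehicle libraries. Between DMαKG replicate 3 and vehicle replicate 4, the libraries that lay apart, the difference was 0.01, and among the other 4 it was 0.33.

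The 2 members at an unadjusted p under 0.05 were Tnfrsf4, the co-stimulatory receptor OX40, and Izumo1r, folate receptor 4. Tnfrsf4, which overlaps Sdf4 and is uncertain, had 257, 306 and 183 CPM with DMαKG and 169, 152 and 199 CPM with vehicle. Izumo1r had 598, 603 and 688 CPM with DMαKG and 518, 512 and 540 CPM with vehicle, a log2 fold change of 0.27 (SE 0.11, unadjusted p = 0.0276, edgeR) with no overlap. Ctla4, the inhibitory receptor through which Tregs strip CD80 and CD86 from antigen-presenting cells, had 1722, 1722 and 514 CPM with DMαKG and 882, 809 and 583 CPM with vehicle. DMαKG replicates 1 and 2 stood above all vehicle libraries and DMαKG replicate 3 below them. Its log2 fold change was 0.80 (95% interval -0.04 to 1.64, unadjusted p = 0.0603, edgeR), and it was 1.18 without DMαKG replicate 3. Tnfrsf18, the receptor GITR, had 222, 236 and 173 CPM with DMαKG and 168, 154 and 197 CPM with vehicle.

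Suppressive and effector genes leaned the other way in number, with 23 of 35 tested lower and 12 higher in level and a median of -0.12, which was 0.03 without vehicle replicate 4. Ccr2, a chemokine receptor of effector T cells and monocytes, had 36.4, 38.6 and 37.4 CPM with DMαKG and 60.8, 47.4 and 95.8 CPM with vehicle, a log2 fold change of -0.86 (SE 0.36, unadjusted p = 0.0331, edgeR). The DMαKG libraries were close together and the vehicle libraries spread above them; without vehicle replicate 4 the value was -0.53. Cxcr6, which overlaps Fyco1 and is uncertain, had 7.32, 10.8 and 11.4 CPM with DMαKG and 15.4, 12.2 and 21.2 CPM with vehicle. Ccr8, a receptor of tissue and effector Tregs, had 67.3, 76.1 and 34.7 CPM with DMαKG and 41.5, 37.1 and 40.7 CPM with vehicle, so the groups overlapped through DMαKG replicate 3. Il10, an inhibitory cytokine, had 37.6, 48.7 and 15.4 CPM with DMαKG and 34.0, 20.3 and 21.7 CPM with vehicle, with a 95% interval of -0.70 to 1.55.

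Genes of resting and naive T cells had 13 of 16 members higher and 3 lower, with a median of 0.10, which was 0.02 without DMαKG replicate 1 and 0.23 without DMαKG replicate 3. Ccr7, the receptor that guides T cells into lymph nodes, had 574, 706 and 157 CPM with DMαKG and 265, 196 and 166 CPM with vehicle, a log2 fold change of 1.20 (SE 0.43, unadjusted p = 0.0166, edgeR). Klf2, a transcription factor of T cell quiescence and egress, had 684, 778 and 239 CPM with DMαKG and 480, 315 and 188 CPM with vehicle. In both genes DMαKG replicates 1 and 2 were the 2 highest libraries and DMαKG replicate 3 lay within the vehicle range or, for Ccr7, just below it. Of 27 chemokine receptor and homing genes 13 were higher and 14 lower, with a median of -0.01, 2 higher and 3 lower at an unadjusted p under 0.05 (background 1.05% and 1.68%). T helper cytokine genes were low: 7 of 11, including Il4, Il5, Il13 and Il2, had at most 12 counts in a WT library and were not tested, and the 4 tested were lower in level with a median of -0.42, which was -0.01 without vehicle replicate 2. Tnf, an inflammatory cytokine, had 17.5, 19.6 and 19.7 CPM with DMαKG and 23.9, 22.3 and 19.8 CPM with vehicle. T cell receptor signalling genes had 23 of 28 higher and 5 lower with a median of 0.06, and 27 of 28 intervals lay within 2-fold.

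Immediate-early genes are switched on within minutes of stimulation and include the subunits of the transcription factor AP-1. Of 34 tested, 30 were higher and 4 lower in level and the median log2 fold change was 0.41, but 0 reached an unadjusted p under 0.05 and 0 had non-overlapping groups. The list mean was 0.60, 0.71 and -0.69 with DMαKG and 0.50, 0.18 and -1.30 with vehicle. DMαKG replicate 3 and vehicle replicate 4 were the low libraries, 1.49 below the other 4 on average, so the spread within a treatment exceeded the difference between treatments. Klf4 had 161, 144 and 28.7 CPM with DMαKG and 78.1, 61.1 and 3.46 CPM with vehicle, and its 95% interval ran from -1.08 to 3.53. Jund, an AP-1 subunit, had 687, 808 and 488 CPM with DMαKG and 630, 537 and 369 CPM with vehicle. The list median was 0.10 without vehicle replicate 4 and 0.73 without vehicle replicate 2. The part of tissue handling or cell sorting in this spread was not tested.

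Heat shock protein genes had 12 of 18 members lower and 6 higher, with a median of -0.10. Hsph1, a co-chaperone of HSP70, had 91.2, 73.9 and 148 CPM with DMαKG and 210, 171 and 112 CPM with vehicle, and Dnaja1, an HSP40 co-chaperone, had 302, 237 and 338 CPM with DMαKG and 444, 343 and 346 CPM with vehicle. The groups overlapped in Hsph1 and not in Dnaja1. Among the 4 libraries that lay together, the list mean was 0.54 lower with DMαKG, and between DMαKG replicate 3 and vehicle replicate 4 it was 0.58 higher, so the direction was not shared.

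Interferon-stimulated genes, the antiviral programme switched on by interferons, had 42 of 47 tested members lower and 5 higher in level, and their median log2 fold change was -0.14. None of the 47 reached an unadjusted p under 0.05 in edgeR's test and 0 had non-overlapping groups. Stat2, the subunit of the ISGF3 complex, had 65.7, 68.5 and 106 CPM with DMαKG and 97.4, 87.3 and 121 CPM with vehicle, a log2 fold change of -0.35 (95% interval -0.74 to 0.04). Oas2, which senses double-stranded RNA, had 13.2, 13.3 and 23.3 CPM with DMαKG and 29.5, 16.7 and 34.2 CPM with vehicle. In both genes DMαKG replicates 1 and 2 were the lowest of the 6 libraries, and DMαKG replicate 3 stood among the vehicle libraries. The list mean was -0.20, -0.23 and 0.19 with DMαKG and 0.03, -0.17 and 0.38 with vehicle, so DMαKG replicate 3 and vehicle replicate 4 were the high libraries. The list median was 0.03 without vehicle replicate 4 and -0.30 without DMαKG replicate 3. Within that pair the mean differed by -0.19 and among the other 4 libraries by -0.14. Stat2 overlaps Apof and is uncertain.

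The promoters of these genes are shown for a motif that belongs to interferon-stimulated genes as a class. A high share in the list is therefore built into its choice and says nothing about DMαKG. The motif of GAAA, any 2 bases and GAAA again, the core of the interferon-stimulated response element, was searched on both strands in RefSeq promoter windows of GRCm38.p6, from 250 bases before to 50 bases after the gene start. It was found in 20 of the 38 list members that have a window (52.6%), against 408 of 10373 tested genes with a window (3.93%). The 232 bases before the start of Stat2, chr10:128270266-128270497 on the plus strand, hold 1 match, read on the opposite strand and given in capitals.
Stat2: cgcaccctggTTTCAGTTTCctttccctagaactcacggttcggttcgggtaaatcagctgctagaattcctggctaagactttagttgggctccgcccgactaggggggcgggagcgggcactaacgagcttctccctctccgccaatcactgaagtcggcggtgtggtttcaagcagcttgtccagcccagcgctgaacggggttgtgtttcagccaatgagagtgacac

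Shorter stretches around the match, in capitals, are given for the next 5 members by p-value that hold a match before the gene start, chosen after their values were seen; each reads 5′ to 3′ on the gene's strand, and the capitals of Trim30a hold the motif on the opposite strand.
Irgm1 (chr11:48871427-48871452, minus strand): aagaaataGAAACCGAAActgattct
Trim30a (chr7:104465212-104465237, minus strand): ttctttagTTTCTTTTTCtcagttcc
Igtp (chr11:58199514-58199539, plus strand): taggaactGAAACTGAAAgctgttcg
Bst2 (chr8:71537579-71537604, minus strand): aggaaaatGAAACTGAAAggctgcag
Isg15 (chr4:156200867-156200892, minus strand): aggaaaccGAAACAGAAAatagctct

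Irgm1, an interferon-inducible GTPase, had 71.4, 63.5 and 122 CPM with DMαKG and 91.6, 88.6 and 133 CPM with vehicle, and Igtp, another of that family, had 160, 141 and 270 CPM with DMαKG and 202, 170 and 316 CPM with vehicle. Isg15, a ubiquitin-like protein, had 13.0, 11.6 and 23.2 CPM with DMαKG and 19.0, 12.2 and 29.1 CPM with vehicle. DMαKG replicate 3 and vehicle replicate 4 were the 2 highest libraries in each of these 3 genes. The AP-1 motif TGANTCA, searched in the same way, was in 1 of 26 immediate-early genes with a window (3.85%) and in 631 of 10373 tested genes (6.08%). A match describes the letters of the window and not binding.

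**Figure D4:**
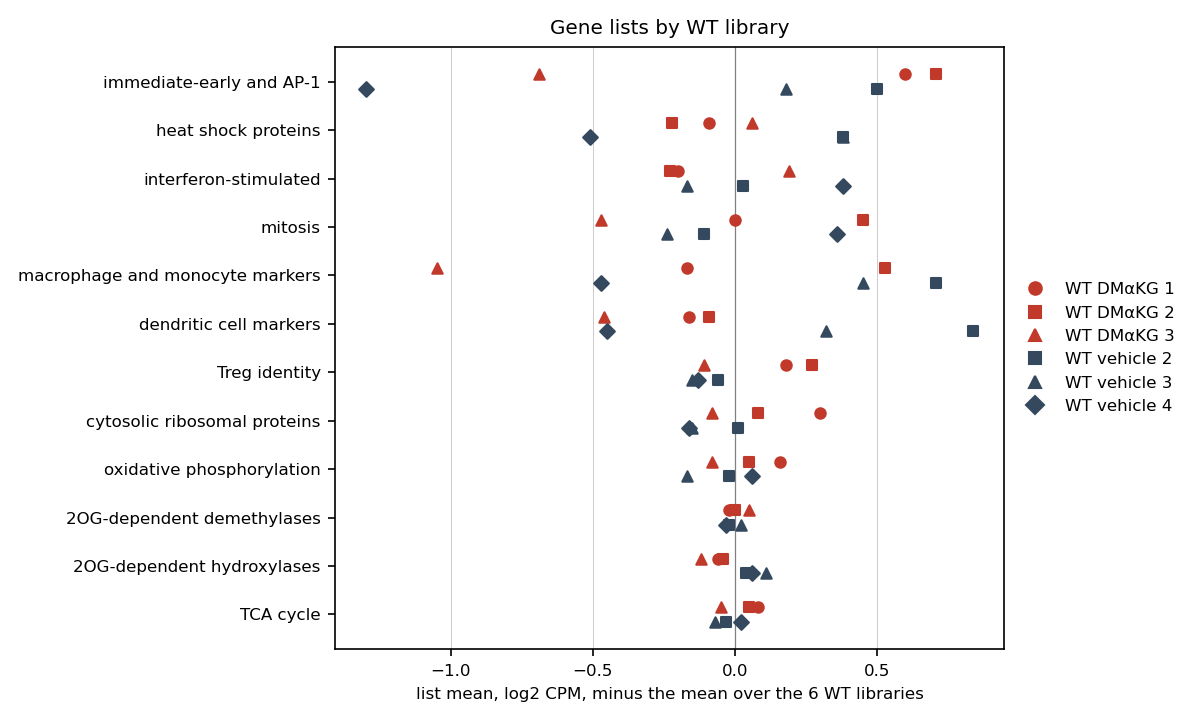
Mean log2 CPM of each gene list in each WT library, minus the mean over the 6 WT libraries (red, DMαKG replicates 1 to 3; blue, vehicle replicates 2 to 4). DMαKG replicate 3 and vehicle replicate 4 are the low libraries of the immediate-early list and the high ones of the interferon-stimulated list, and the hydroxylase means do not overlap between the treatments.

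Stress and proliferation genes did not separate the treatments. NRF2 and antioxidant genes had 17 of 27 higher and 10 lower, with a median of 0.05; 1 member, the sulfiredoxin gene Srxn1, reached an unadjusted p under 0.05 in the lower direction (background 1.68%), at 1.64, 1.81 and 1.92 CPM with DMαKG and 2.26, 3.17 and 4.25 CPM with vehicle (log2 fold change -0.85, SE 0.27). Its libraries did not overlap, but its level was low. Nfe2l2, which encodes NRF2 itself, had 22.7, 19.5 and 37.2 CPM with DMαKG and 33.9, 32.6 and 38.2 CPM with vehicle. ATF4 stress response genes had 19 of 26 higher and 7 lower, with a median of 0.06. Mitosis genes had 22 of 40 higher and 18 lower with a median of 0.03, and DNA replication genes 30 of 45 higher and 15 lower with a median of 0.04. The mitosis list mean varied more between libraries than between treatments, at 0.00, 0.45 and -0.47 with DMαKG and -0.11, -0.24 and 0.36 with vehicle. Its median was -0.23 without DMαKG replicate 2 and 0.24 without DMαKG replicate 3.

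Transcripts of other cell types were present at low levels, and the antigen-presenting cell ones were lower in number with DMαKG. Dendritic cell markers had 15 of 16 tested members lower and 1 higher (median log2 fold change -0.38), and macrophage and monocyte markers 16 of 21 lower and 5 higher (median -0.37). In bulk samples, fewer cells of a type and less RNA per cell cannot be told apart. Siglech, a lectin of plasmacytoid dendritic cells, had 2.99, 2.95 and 1.49 CPM with DMαKG and 21.4, 9.11 and 3.10 CPM with vehicle, a log2 fold change of -2.18 (SE 0.69, unadjusted p = 0.00797, edgeR), which was -1.30 without vehicle replicate 2. Flt3, the receptor for the growth factor of dendritic cells, had 1.29, 1.02 and 1.49 CPM with DMαKG and 4.86, 2.11 and 1.36 CPM with vehicle, and Spib, a transcription factor of plasmacytoid dendritic cells and B cells, had 1.41, 1.76 and 1.44 CPM with DMαKG and 6.44, 2.39 and 2.52 CPM with vehicle. Vehicle replicate 2 held the highest value of all 3 genes. Tcf4, which directs the plasmacytoid fate, had 8.55, 7.14 and 5.44 CPM with DMαKG and 14.2, 9.66 and 7.45 CPM with vehicle. Mpeg1, a macrophage perforin-like protein, had 17.1, 29.0 and 8.96 CPM with DMαKG and 57.1, 43.2 and 17.9 CPM with vehicle.

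The genes named so far are the members of these lists with the smallest p-values, and Spib comes from the B cell list; the members with the highest levels differed less. Ctss, the lysosomal protease cathepsin S, had 273, 238 and 228 CPM with DMαKG and 214, 246 and 216 CPM with vehicle. Cst3, which encodes cystatin C, had 42.0, 39.6 and 33.0 CPM with DMαKG and 39.8, 35.9 and 35.4 CPM with vehicle. Cd74, the invariant chain of MHC class II, had 55.7, 81.4 and 49.7 CPM with DMαKG and 95.3, 80.1 and 42.1 CPM with vehicle. The groups overlapped in all 3, with log2 fold changes of 0.13 for Ctss, 0.04 for Cst3 and -0.22 for Cd74. Csf1r, the receptor of macrophage colony-stimulating factor, had 22.4, 54.7 and 9.82 CPM with DMαKG and 46.5, 45.4 and 12.2 CPM with vehicle, a log2 fold change of -0.26, and its groups overlapped too.

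The summed level of the dendritic cell markers ran from 209 to 279 CPM with DMαKG and from 202 to 384 CPM with vehicle, and that of the macrophage and monocyte markers from 350 to 545 CPM with DMαKG and from 425 to 574 CPM with vehicle; the groups overlapped in both (two-sided exact permutation tests over 3 against 3 libraries, p = 0.5 each). The list medians depended on single libraries: for dendritic cells -0.12 without vehicle replicate 2 and -0.76 without vehicle replicate 4, and for macrophages and monocytes -0.01 without DMαKG replicate 3 and -1.04 without DMαKG replicate 2. Markers of neutrophils summed to 15.2 to 17.4 CPM with DMαKG and 16.3 to 21.1 CPM with vehicle, and of B cells to 48.4 to 57.8 CPM with DMαKG and 41.0 to 69.2 CPM with vehicle. Those of NK and CD8 T cells summed to 59.4 to 70.0 CPM with DMαKG and 55.0 to 77.8 CPM with vehicle. Defining genes of neutrophils (S100a8, Ly6g, Mpo and Elane) and of platelets (Pf4 and Ppbp) were at 0 or under the count needed to test them. The part of carried-over cells in the differences of Siglech, Tcf4, Spib, Ccr2 or Cd80 was not tested.

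The same treatment was also given to cKO mice, whose 6 libraries share none with the WT comparison. There DMαKG against vehicle gave 0 genes at an adjusted p under 0.05 and 2247 (17.4%) at an unadjusted p under 0.05, of which 966 (7.49%) were higher and 1281 (9.93%) lower. Of the 24 best-ranked WT genes, 20 (83.3%) had the same direction in cKO, against 64.3% of all 12903 genes tested and 76.7% of the 352, and 12 (50.0%) had the same direction and an unadjusted p under 0.05 there, against 14.5% of all genes and 35.8% of the 352; 0 had the opposite direction with an unadjusted p under 0.05. Fam177a, Hs3st3b1, Dnah7a and Cst7 were among the 12: their log2 fold changes in cKO were -1.52, -0.94, 0.82 and 0.72, against -0.82, -0.57, 0.88 and 0.53 in WT. Both contrasts came from 1 fit of all 12 libraries and share each gene's estimate of spread. A small p in WT thus favours a small p in cKO, so the 12 are no independent check. In both genotypes replicate 1 occurs only with DMαKG and replicate 4 only with vehicle. The part of replicate number in the shared directions was not tested. Xxylt1 was the clearest exception, with a log2 fold change of 0.00 in cKO and 0.58 in WT, a difference of 0.58 between genotypes (edgeR interaction contrast, unadjusted p = 0.00371). Its cKO libraries had 74.2, 73.7 and 63.7 CPM with DMαKG and 70.5, 72.2 and 69.5 CPM with vehicle. All of these lay above its WT vehicle libraries, at 54.0, 45.5 and 46.3 CPM. Cd80, Chek2, Siglech and Nebl also had an unadjusted p of the difference under 0.05, so 5 of 24 did, against 477 of all genes (3.7%) and 67 of the 352 genes with an unadjusted p under 0.05 in WT. The WT difference by which the genes were picked is part of this contrast, so nothing is read from that count, and none of the 12903 differences passed an adjusted p of 0.05.

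**Figure D5:**
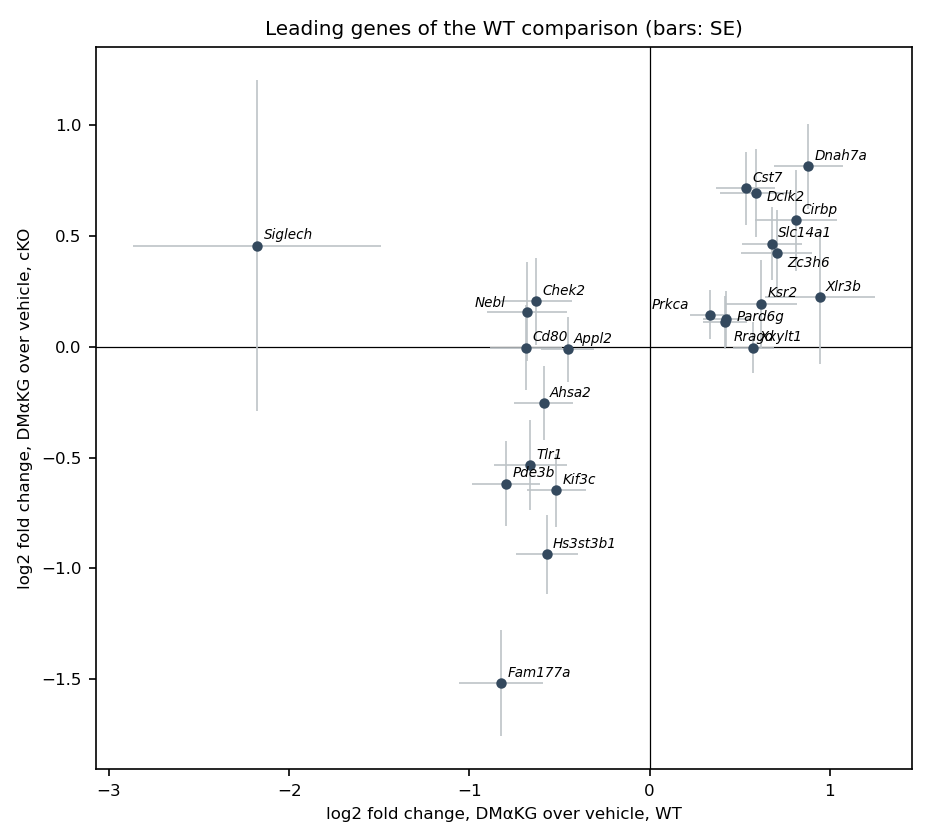
Log2 fold change of DMαKG over vehicle in WT (horizontal) and in cKO (vertical) for 23 of the 24 best-ranked genes of the WT comparison, with standard errors as bars. Most genes lie in the lower left or upper right, Fam177a furthest down in cKO, and Xxylt1 and Cd80 lie near 0 on the cKO axis.

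Lists that differed little in WT were not always so in cKO. Mitosis genes had a median of 0.03 in WT and 0.68 in cKO, with 38 of 40 higher there. Their mean log2 CPM in cKO was 5.01, 4.09 and 4.17 with DMαKG and 2.61, 3.42 and 4.73 with vehicle, so cKO vehicle replicate 4 lay above 2 of the treated libraries. Interferon-stimulated genes had medians of -0.14 in WT and -0.47 in cKO, with 42 of 47 lower in both genotypes. Their mean log2 CPM in cKO was 5.298, 5.296 and 5.595 with DMαKG and 5.878, 6.035 and 5.864 with vehicle. The cKO groups did not overlap in this list, while the WT groups did. Cytosolic ribosomal protein genes were higher in 82 of 84 in both, with medians of 0.20 in WT and 0.36 in cKO. Their mean log2 CPM in cKO was 9.33, 9.17 and 9.99 with DMαKG and 9.03, 9.15 and 9.40 with vehicle, so cKO DMαKG replicate 3 stood above the rest and the groups overlapped. Immediate-early genes had medians of 0.41 in WT and 0.54 in cKO. Their mean log2 CPM in cKO was 8.065, 7.992 and 7.685 with DMαKG and 7.009, 8.156 and 5.854 with vehicle. The groups overlapped, with cKO vehicle replicate 3 the highest library and cKO vehicle replicate 4 the lowest. Dendritic cell markers had medians of opposite sign, -0.38 in WT and 0.61 in cKO, and macrophage and monocyte markers likewise, at -0.37 and 0.71. In cKO the dendritic cell means were 2.709, 2.412 and 3.187 log2 CPM with DMαKG and 1.997, 2.674 and 1.935 with vehicle. The macrophage and monocyte means were 2.408, 2.328 and 3.673 with DMαKG and 1.378, 2.767 and 2.298 with vehicle. The cKO groups overlapped in both lists, and cKO DMαKG replicate 3 stood highest in both. These medians are descriptions, and the difference of a list between genotypes was not tested. The part of replicate number in list directions shared by the genotypes was not tested either. By single gene, the best-ranked difference was Ncoa7, which had 122, 110 and 125 CPM with DMαKG and 104, 97.3 and 105 CPM with vehicle in WT, and a log2 fold change of 0.22 in WT and -0.56 in cKO (unadjusted p of the difference 8.27e-05, edgeR). Its DMαKG libraries lay above its vehicle libraries in WT and below them in cKO.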

How the data were processed

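Libraries were made from fragmented mRNA of sorted Tregs with the NEBNext Ultra kit, per the series' design text. The authors deposited 1 table of the whole series with an estimated count, an FPKM and a TPM per gene and library, as named in its column headers; the sources used here do not say how each was computed from the reads. Tools named in the submitters' processing notes, without their roles, are DESeq2 1.16.1, featureCounts 1.5.0-p3 and HISAT2 2.0.5, and the build is mm10. Of the deposited estimated counts 36% had a fractional part, and all were rounded before testing, although the design had assumed whole counts. TPM was used only to rank levels between genes, and FPKM was not used. The table held 0 sample columns that the labels do not name.

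Counts were tested with edgeR 4.0.16 (R 4.3.3; filterByExpr, TMM, glmQLFit and glmQLFTest) on all 12 libraries with 4 group means, 8 residual degrees of freedom and a common coefficient of biological variation of 19.7%, and p-values were adjusted by Benjamini and Hochberg over all genes tested. CPM is scaled by TMM, and log2 CPM uses a prior count of 2. Libraries of a group differed from each other by more than counting noise, so none was treated as a repeat of another. Nothing in the labels states separate sorts or days, so p-values measure the spread between these libraries. A median of 0.18 for the standard error of a log2 fold change is the precision reached. The procedure was first run on simulated counts, drawn for each gene on its own. Those lack the differences between libraries that genes share here, so nothing is read from that run.

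Genes named are those of highest rank by p-value and by size of change among non-overlapping genes, up to 3 members of each list by p-value, the best-ranked differences between genotypes, and some Treg genes; a few others were named for their role or after their values were seen, as stated beside them. Of the genes the rule takes, 1 of the 24 best-ranked is counted but not reported here. The comparison and the gene lists were chosen with earlier results of these data known. Alternatives covered scaling, filters, DESeq2 1.42.0, limma 3.58.1 voom with quality weights, WT libraries only, Y-linked level, a replicate block, and libraries left out. Coordinates, neighbours and promoter windows are RefSeq's for GRCm38.p6, matched by gene ID for 17901 of 17955 genes; mm10 is the same build.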

Additional observations from a re-analysis of the deposited data

How the results depend on the processing

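The count of genes past an adjusted p of 0.05 was 0 under each alternative run, except 2 by DESeq2's Wald test (H1f3 and Xxylt1), 8 by limma's voom with sample quality weights (H1f3, Xxylt1, Dnah7a and Slc14a1 higher; Ahsa2, Nradd, Pla2g4c and LOC115489401 lower; adjusted p = 0.0489 for each) and 2 with a term for the library pair DMαKG 3 and vehicle 4 in a fit of the 6 WT libraries (Dnah7a and Gm42226, adjusted p = 0.0498 for both), an alternative chosen after seeing the data. Unadjusted p-values under 0.05 were found for 2341 genes with voom, 1261 with the pair term, 172 without DMαKG 2 and vehicle 3, 766 without DMαKG 3 and vehicle 4, and 203 to 1221 with single libraries left out, against 352. List medians kept within the spread between libraries, with these exceptions, for which the cause was not tested. For the demethylases (0.06) the median was 0.01 with voom, 0.02 with a covariate for Y-linked level, 0.00 without DMαKG 3 and vehicle 4 and 0.00 to 0.07 with single libraries left out. Without DMαKG 3 and vehicle 4 it was 0.11 for the TCA cycle, 0.14 for NRF2 genes and 0.44 for mitosis. Without DMαKG 2 and vehicle 3, the WT libraries with the lowest Y-linked level of their group, it was -0.30 for suppressive and effector genes, -0.02 for α-ketoglutarate transport, -0.01 for glycolysis, -0.06 for cholesterol synthesis and -0.60 for erythroid and platelet markers. With single libraries left out it ran from 0.01 to 0.08 for α-ketoglutarate transport, from -0.11 to 0.01 for chemokine receptors, from -1.47 to 0.46 for neutrophil markers and from -0.66 to 0.05 for erythroid and platelet markers. Some genes that had not passed the test reversed in sign: Dnmt1 was at 0.02 without DMαKG 3 and vehicle 4, and Ikzf2 at -0.02, Il10 at -0.07 and Cst3 at 0.00 without DMαKG 2 and vehicle 3. With single libraries left out, Ddx3y ran from -0.45 to 1.30, Dnmt1 from -0.20 to 0.07, Ikzf2 from -0.03 to 0.04, Igtp from -0.61 to 0.03, Isg15 from -0.71 to 0.03, Cst3 from -0.03 to 0.14, Cd74 from -0.49 to 0.03 and Csf1r from -1.11 to 0.15.

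The replicate numbers were not used to pair the WT libraries in the main fit. The groups share numbers 2 and 3 only, and the deviations of same-numbered libraries correlated at 0.23 and -0.22, which cannot settle a pairing. Number 1 occurs only with DMαKG and number 4 only with vehicle, so number and treatment are partly confounded. On the first principal component of all 12 libraries, WT and cKO vehicle replicates 4 lay at 32.9 and 32.8. Vehicle replicates 2 lay at 0.1 and 20, and vehicle replicates 3 at -2.8 and 6.3. Whether a replicate number marks a shared litter or day was not tested. Blocking on that number left 0 adjusted calls and 254 genes at an unadjusted p under 0.05. Under the block the median was 0.00 for the demethylases, 0.13 for α-ketoglutarate transport, 0.64 for neutrophil markers and -0.12 for immediate-early genes, and Tnfaip3 was at -0.14, Dnmt1 at 0.06, Ikzf2 at -0.05 and Isg15 at 0.05.

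Depth was even across the WT libraries, and 3 libraries a group limit the precision. Differences in cells carried over into the sort, in strand assignment between overlapping genes and in the rounding of counts that were not whole were not tested.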
